A study of Drosophila melanogaster with 9 samples.

Results

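Glutathione S-transferases (GSTs) are enzymes that join the tripeptide glutathione to reactive or poorly soluble molecules, which makes them easier to neutralise and export. Most are soluble proteins that fall into classes named by Greek letters. The delta and epsilon classes have expanded in insects and are known for handling insecticides, plant toxins and products of lipid peroxidation, while the sigma, omega, theta and zeta classes have relatives in many animals. Several GST genes, GstD1 above all, are widely used in flies as readouts of oxidative stress and of the transcription factor Cnc.

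The family is represented here by 10 listed genes, picked with earlier results of these data known. Their probe sets were found by the gene symbol that the platform annotation gives. The genes are GstS1 of the sigma class, GstO2 of the omega class, GstE1, GstE3, GstE6, GstE7 and GstE9 of the epsilon class, and GstD1, GstD3 and GstD5 of the delta class. They have 12 probe sets among the 14010 of the array. GstO2 has 3 and each other member 1. At 1 probe set per gene, 10845 genes were tested.

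Embryos were laid over 2 h and aged at 25 °C for about 9 h. Total RNA came from whole dechorionated Drosophila melanogaster embryos. At least 85% of them were at stages 13 to 14, when the epidermis closes over the dorsal side. The RNA was hybridised to 9 1-colour arrays, 3 per group, each from an independent RNA sample. The series was made to find genes that respond to the Jun N-terminal kinase (JNK) pathway. GOF embryos (w;UAS-hepACT/+;69B/+) expressed an activated form of Hep, the kinase upstream of JNK, from 1 copy of a UAS transgene under the ectodermal driver 69B-GAL4. LOF embryos (y w heprev75/y w hep1) combined a pair of mutant hep alleles, and WT embryos carried w, which the other groups carry too. The 9 arrays hold no group with the driver or the transgene alone, so their effect and that of activated Hep cannot be told apart, and LOF embryos also differ from WT in carrying y.

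Values are linear intensities, given as the mean ± SD over n = 3 arrays. A change is the difference of group means of log2(value + 1) with its standard error (SE), tested with limma across all 10845 genes. A gene with a Benjamini-Hochberg adjusted p under 0.05 is said to have risen or fallen. The authors returned their log values to a linear scale by a base that no source used here gives. On some array 239 probe sets exceed the limit of a 16-bit scanner, up to 1331513, and the natural logarithm of that value is 14.1, which favours base e. Changes are given as if the base were 2. If it was e, each log2 change given here should be multiplied by 0.693, and the fold is given under both readings for the main genes. Intensities, SDs, marker sums and folds between arrays of a group would differ too, and are not corrected for it. An intensity depends on how well its own probes bind, so levels are compared between groups for 1 gene, never between genes. In whole embryos, fewer cells of a type and less RNA per cell cannot be told apart.

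Array medians lay between 688 and 709, and arrays of 1 group correlated at 0.992 to 0.997 across genes, LOF with WT arrays at 0.989 to 0.994 and GOF with WT arrays at 0.961 to 0.97. The pathway readout puc, a JNK-induced phosphatase gene, had 6435, 5278 and 6712 on the GOF arrays and 1739, 1813 and 1704 on the LOF arrays, against 2550, 2016 and 2347 on the WT arrays. It rose in GOF (log2 change 1.41, adjusted p = 2.49e-06), whereas in LOF all arrays were below WT without passing the threshold (log2 change -0.39, adjusted p = 0.0832). The other JNK targets checked, dpp and scaf, rose in GOF by 0.31 and 0.27 (adjusted p = 0.0191 and 0.0232) and were at 0.02 and 0.09 in LOF (adjusted p = 0.938 and 0.601), with all LOF arrays of scaf above WT. RNAs of the egg and early embryo differed widely: of 13 measured markers 8 rose and 1 fell in GOF (over all genes 16.6% rose and 20.1% fell), and 4 rose and none fell in LOF (1.36% and 3.37%). Their summed intensity ran from 117437 to 162764 in GOF and from 50937 to 58422 in LOF, against 45627 to 54749 in WT. Among markers of other cell types in GOF, 6 of 10 hemocyte, 2 of 5 fat body, 2 of 5 midgut, 3 of 5 somatic muscle, 4 of 6 amnioserosa and 5 of 7 epidermis genes fell, and none of them rose by the limma test, while 20.1% of all genes fell. In LOF 2 hemocyte genes and 1 muscle gene rose, and 1 amnioserosa and 1 epidermis gene fell. The summed hemocyte level was 21791 to 27902 in GOF and 53994 to 58446 in LOF, against 38513 to 45524 in WT. Each sum follows its brightest genes. The hemocyte genes that rose in LOF were Pxn and PPO2, by 1.48 and 0.46 (limma, adjusted p = 0.000263 and 0.0411). In the same comparison srp, Col4a1 and vkg were at 0.07, 0.09 and 0.03, and crq at -0.40, all without a call. For fat body the sums were 31718 to 49094 in GOF, 59720 to 66153 in LOF and 58182 to 70533 in WT, and for midgut 7674 to 7718 in GOF, 8880 to 9188 in LOF and 9067 to 9564 in WT. The muscle sum was 15683 and 19102 on GOF replicates 1 and 2 but 41781 on GOF replicate 3, next to 35935 to 39142 in LOF and 38123 to 48465 in WT. Amnioserosa sums were 23575 to 24573 in GOF, 29004 to 34885 in LOF and 42641 to 52948 in WT, and epidermis sums 4057 to 4347 in GOF, 7399 to 8573 in LOF and 8009 to 9530 in WT. The brightest amnioserosa gene, Ance, averaged 21580 in LOF and 39337 in WT, and was the 1 that fell in LOF. By contrast, peb lay above WT on all LOF arrays (log2 change 1.08, limma, adjusted p = 0.0948). No marker had a value of 0. The lowest readings among hemocyte markers were those of eater (44 to 61 in GOF, 43 to 50 in LOF and 45 to 59 in WT) and NimC1 (49 to 57 in GOF, 52 to 59 in LOF and 44 to 59 in WT), and Hml stayed at 54 to 70 on all 9 arrays. The part of these differences in the GST results was not tested.

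**Figure D1:**
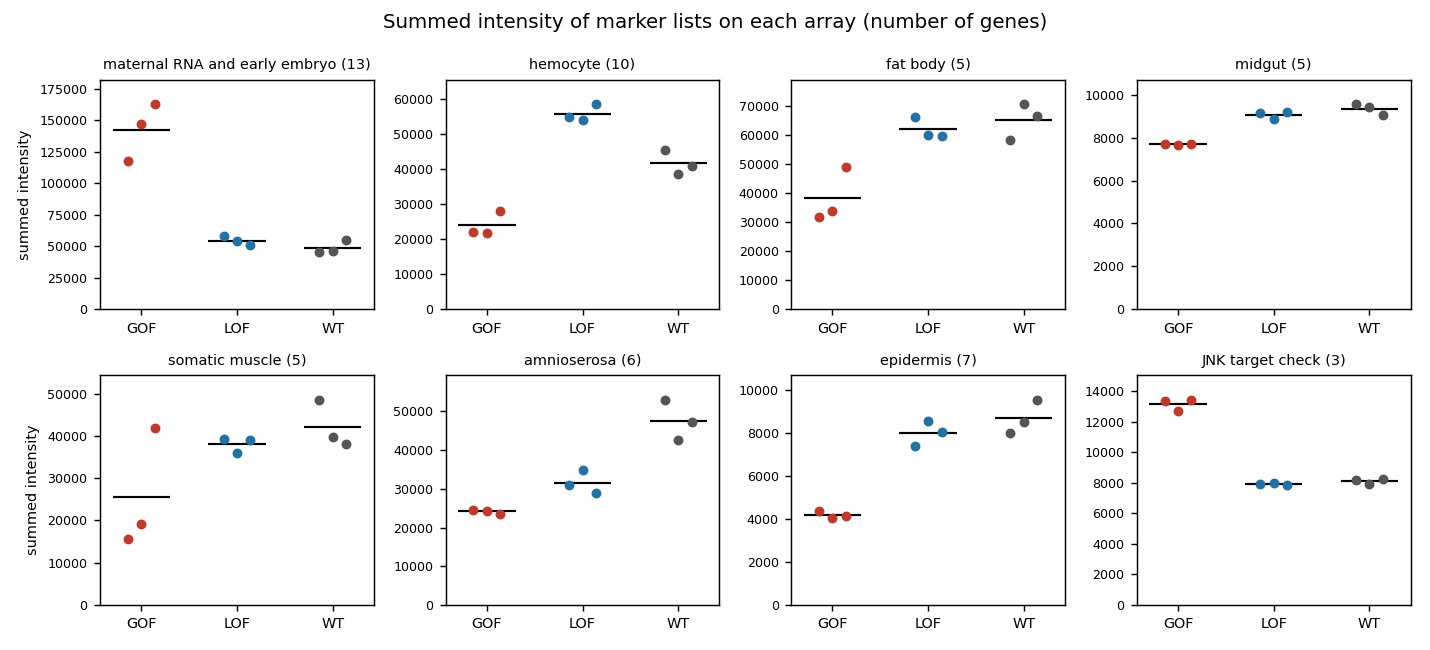
Summed linear intensity of each marker list (y axis) on the 3 GOF, 3 LOF and 3 WT arrays (points, with the group mean as a bar); the number of genes summed is in brackets, and the JNK target list holds puc, dpp and scaf. The sums of egg and early embryo RNAs lie at 117437 or above in GOF and at 58422 or below elsewhere, and the muscle sum of GOF replicate 3 (41781) stands away from the other 2 GOF arrays.

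Most of these GSTs had more RNA in embryos with activated Hep. The GOF and LOF comparisons share the WT arrays. Of the 10 members, 6 rose in GOF against WT and 0 fell (also 0 at an unadjusted p under 0.05 in limma), while over all genes 36.7% changed, 16.6% upwards and 20.1% downwards. The risers were the sigma gene, the omega gene and 4 of the 5 epsilon genes. None of the 3 delta genes passed the threshold. The median log2 change of the 10 members was 0.84, against -0.03 over all genes. All 10 members lay outside the dimmest 40% of genes, where calls were more frequent. Refitted on the 6507 genes outside it, 1448 rose and 1841 fell, and again 6 members rose. The mean used for this filter takes in the GOF arrays, so a rise in GOF helps a gene to pass. GstE7 passed through its GOF level (means of 1398 in GOF, 358 in LOF and 430 in WT). For GstE7 the refit is therefore no separate check of the rise. All 3 GOF arrays lay above all 3 WT arrays for the same 6 members, and 19.6% of all genes had that pattern. For 0 members did all GOF arrays lie below WT, against 24.9% of all genes. The members were picked with earlier results of these data known, so these shares are no test of the family.

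GstS1 had the largest change of the members. It encodes the sigma-class GST of the fly, which conjugates the lipid peroxidation product 4-hydroxynonenal and is abundant in adult flight muscle. Its probe set read 30521, 36168 and 37597 on the GOF arrays and 8367, 8944 and 7804 on the LOF arrays, against 6948, 6573 and 5613 on the WT arrays. The lowest GOF array was thus far above the highest WT array, with means of 34762 ± 3740 in GOF and 6378 ± 689 in WT. The log2 change was 2.45 (SE 0.11, adjusted p = 2.32e-08), a ratio of 5.45 (3.24 under base e). GstS1 varied little among GOF arrays, by 1.23-fold between the highest and the lowest. The 8 egg and early embryo markers that rose in GOF varied by 1.25-fold (plu and osk) to 4.98-fold (bcd) among the same arrays. The lower end of that range is close to the spread of GstS1, and plu was among the genes with the profile nearest to GstS1. Whether GstS1 followed these markers was not tested.

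GstO2 belongs to the omega class, whose enzymes carry a cysteine in the active site and act as thiol transferases. Its brightest probe set read 29683, 30986 and 39750 in GOF and 8992, 8253 and 8327 in LOF, against 10052, 8298 and 10062 in WT. The GOF arrays stood clear of both other groups, which overlapped each other. The rise against WT was 1.81 on the log2 scale (SE 0.12, adjusted p = 5.62e-07), 3.52-fold, 2.39-fold under base e. Both other probe sets of GstO2 were far dimmer and rose too, by 1.01 and 0.96 on the log2 scale (limma, adjusted p = 9.28e-05 and 0.000444 over all 12444 probe sets with 1 gene). The second brightest read 471, 506 and 523 in GOF, against 263, 266 and 218 in WT, and the dimmest read 103, 101 and 154 in GOF, against 63, 59 and 57 in WT. The direction was therefore shared by the 3 sets, and the size was not.

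Among the epsilon genes, GstE7 changed most. The epsilon enzymes are insect GSTs with activity towards insecticides and peroxidised lipids. GstE7 read 1482, 1194 and 1518 in GOF and 355, 342 and 377 in LOF, against 431, 429 and 431 in WT. The WT arrays were nearly identical, with an SD of 1.15 around a mean of 430, and the GOF mean was 1398 ± 178. The log2 change was 1.69 (SE 0.10, adjusted p = 2.16e-07), 3.23-fold, 2.25-fold under base e.

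GstE1 and GstE3 rose by similar amounts. GstE1 read 7565, 7486 and 8643 in GOF and 3912, 3611 and 4335 in LOF, against 3637, 3214 and 2956 in WT. GstE3 read 13288, 12058 and 14337 in GOF and 6526, 4405 and 5848 in LOF, against 6138, 4838 and 5969 in WT. In both genes every GOF array exceeded every LOF and WT array. The log2 changes against WT were 1.27 for GstE1 (SE 0.11, adjusted p = 3.61e-06, 2.42-fold, 1.84-fold under base e) and 1.23 for GstE3 (SE 0.15, adjusted p = 4.66e-05, 2.35-fold, 1.81-fold under base e).

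The other epsilon members changed less or not measurably. GstE9 read 836, 718 and 880 in GOF and 634, 662 and 879 in LOF, against 595, 605 and 582 in WT. Its rise in GOF was 0.44 (SE 0.13, adjusted p = 0.0159), 1.36-fold, 1.24-fold under base e, and the adjusted p was 0.0517 without GOF replicate 3. GstE6 read 3375, 2568 and 5320 in GOF and 3427, 3097 and 3349 in LOF, against 3325, 2845 and 3664 in WT. Its groups overlapped, and GOF replicate 3 alone lay above all other arrays. The log2 change of GstE6 was 0.14 (95% interval -0.32 to 0.59, adjusted p = 0.688), and -0.15 without GOF replicate 3, the array on which the muscle markers also stood apart from the other GOF arrays.

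The delta members gave no call in GOF against WT. GstD1, the main delta GST and a known DDT-detoxifying enzyme, read 44336, 45355 and 53965 in GOF and 32359, 31450 and 42679 in LOF, against 44469, 38793 and 46741 in WT. GOF and WT overlapped for GstD1, with a log2 change of 0.14 (95% interval -0.15 to 0.43, adjusted p = 0.474). GstD3, whose protein lacks the N-terminal stretch with the catalytic serine of other delta GSTs, read 2658, 2629 and 3531 in GOF and 2305, 1888 and 1804 in LOF, against 3485, 3045 and 3669 in WT. Here too GOF and WT overlapped, at a log2 change of -0.22 (95% interval -0.52 to 0.08, adjusted p = 0.263). Without GOF replicate 3, the highest GOF array for GstD3, the change was -0.36 and passed the threshold (adjusted p = 0.0449), so that 5 members rose and 1 fell. GstD5 read 470, 568 and 651 in GOF and 1048, 680 and 619 in LOF, against 427, 421 and 483 in WT. Its GOF arrays overlapped with WT at the lower end and with LOF at the upper end (GOF against WT, log2 change 0.33, 95% interval -0.06 to 0.73, adjusted p = 0.19).

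**Figure D2:**
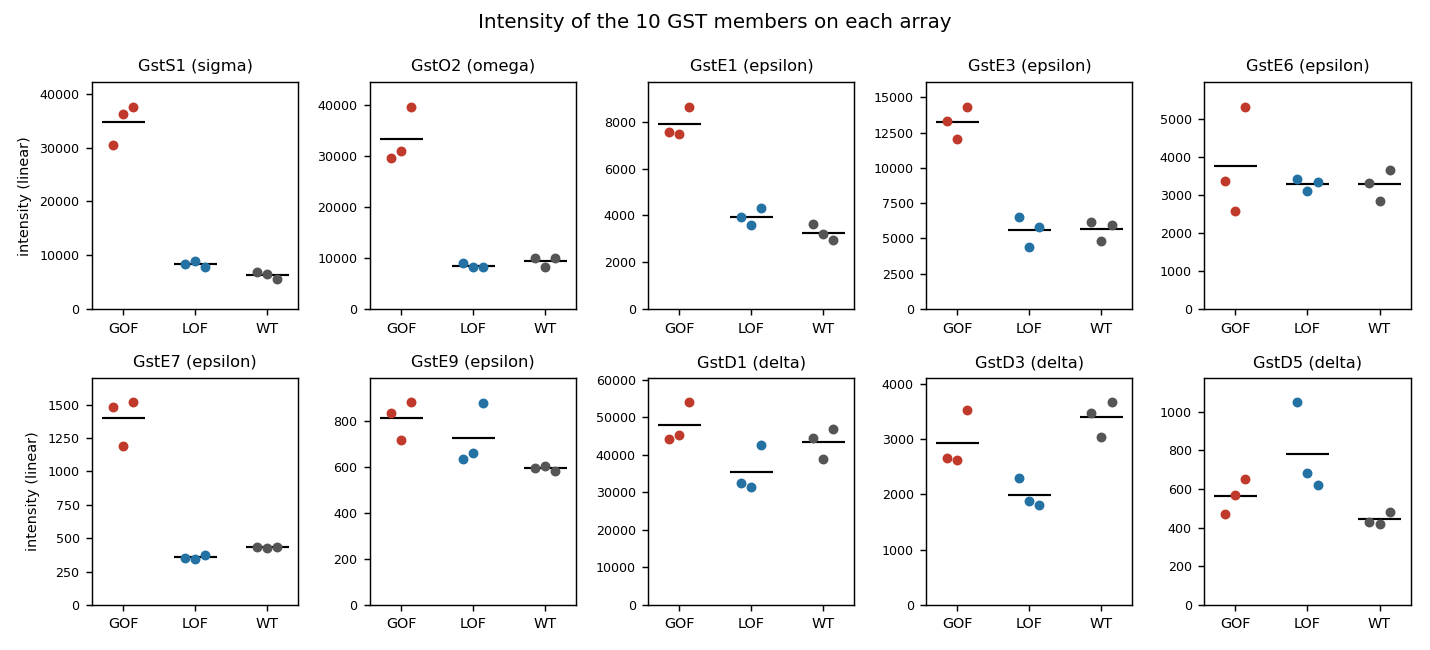
Linear intensity (y axis, from 0) of each of the 10 members on the 3 GOF, 3 LOF and 3 WT arrays (points, with the group mean as a bar), with its own scale per gene. GOF arrays lie above all WT arrays for GstS1, GstO2, GstE1, GstE3, GstE7 and GstE9. LOF arrays lie below all WT arrays for GstD3 and GstE7 and above them for GstD5, GstS1 and GstE9. Of these LOF differences only those of GstD3 and GstD5 passed the threshold.

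Most members were not called in hep mutant embryos. In LOF against WT, 1 member rose and 1 fell, while 4.73% of all genes changed, 1.36% upwards and 3.37% downwards. Both were delta genes, and they went opposite ways. GstD3 averaged 1999 ± 268 in LOF and 3400 ± 321 in WT, a log2 change of -0.77 (SE 0.14, adjusted p = 0.0109), 1.7-fold lower, 1.45-fold under base e. GstD5 averaged 782 ± 232 in LOF and 444 ± 34.2 in WT, a log2 change of 0.78 (SE 0.18, adjusted p = 0.0332), 1.72-fold higher, 1.45-fold under base e. LOF and WT arrays did not overlap for either gene. The log2 ratio of GstD5 to GstD3, a pair chosen after the values were seen, was higher in LOF than in WT by 1.55. This restates the 2 changes and adds no further result.

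Both calls were lost when some single arrays were left out, mostly at a change of about the same size. For GstD3 the change was -0.75 without WT replicate 1 (adjusted p = 0.0552) and -0.73 without LOF replicate 2 (adjusted p = 0.0544). For GstD5 it was 0.75, 0.74 and 0.84 without WT replicates 1, 2 and 3 (adjusted p = 0.121, 0.0919 and 0.0502) and 0.86 without LOF replicate 2 (adjusted p = 0.0759). Without LOF replicate 1, its highest array, the change of GstD5 was 0.55 (adjusted p = 0.0742).

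Of the other members in LOF, GstS1 came nearest to the threshold. All 3 LOF arrays of GstS1 exceeded the WT arrays (8372 ± 570 in LOF and 6378 ± 689 in WT), with a log2 change of 0.40 (SE 0.11, adjusted p = 0.0717). GstE9 also lay above WT on all LOF arrays (log2 change 0.27, adjusted p = 0.263) and GstE7 below (-0.27, adjusted p = 0.181). With GstD3 and GstD5 this made 3 members above and 2 below WT on all arrays, where 13.1% and 12.5% of all genes had such patterns. The others were at -0.15 for GstO2 (95% interval -0.42 to 0.13), 0.28 for GstE1 (0.04 to 0.51), -0.03 for GstE3 (-0.35 to 0.30), 0.01 for GstE6 (-0.44 to 0.47) and -0.30 for GstD1 (-0.59 to -0.01), all with adjusted p of 0.188 or above. The median over the 10 members was -0.01, against 0.02 over all genes.

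GOF against LOF set embryos with activated Hep directly against hep mutants. In it 7 of 10 members were higher in GOF and 0 lower (1 at an unadjusted p under 0.05 in limma, GstD5), while 37.1% of all genes differed, 17.7% higher and 19.4% lower. Of the calls over all genes 47.8% were higher in GOF, and 58.8% after cyclic loess normalization, which left 7 members higher. Refitted on the 6507 genes outside the dimmest 40%, 1558 were higher and 1805 lower, and again 7 members were higher. GstE7, among these members, passed that filter through its GOF level. All GOF arrays lay above all LOF arrays for 7 members, as for 19.9% of all genes, and below them for 0 members, against 29.6% of all genes. GstS1 (log2 change 2.05, adjusted p = 1e-07), GstO2 (1.96, adjusted p = 2.9e-07), GstE7 (1.96, adjusted p = 6.18e-08), GstE3 (1.26, adjusted p = 3.74e-05) and GstE1 (0.999, adjusted p = 2.16e-05) were called as against WT. GstE9, called against WT, was not called against LOF (0.17, 95% interval -0.11 to 0.45, adjusted p = 0.332). The delta genes GstD1 and GstD3, not called in GOF against WT, were higher in GOF than in LOF, by 0.44 (SE 0.13, adjusted p = 0.0211) and 0.55 (SE 0.14, adjusted p = 0.0074). GstD1 had its highest mean in GOF (47885 ± 5290), its lowest in LOF (35496 ± 6240) and WT between them (43334 ± 4090). Neither neighbour in that order passed the threshold for GstD1, and its GOF against LOF call ended without GOF replicate 3 (log2 change 0.35, adjusted p = 0.0748), without LOF replicate 1 (0.38, adjusted p = 0.085) and without LOF replicate 2 (0.36, adjusted p = 0.0916). GstD5 was lower in GOF than in LOF by the mean (-0.45, adjusted p = 0.0749), with overlapping arrays.

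**Figure D3:**
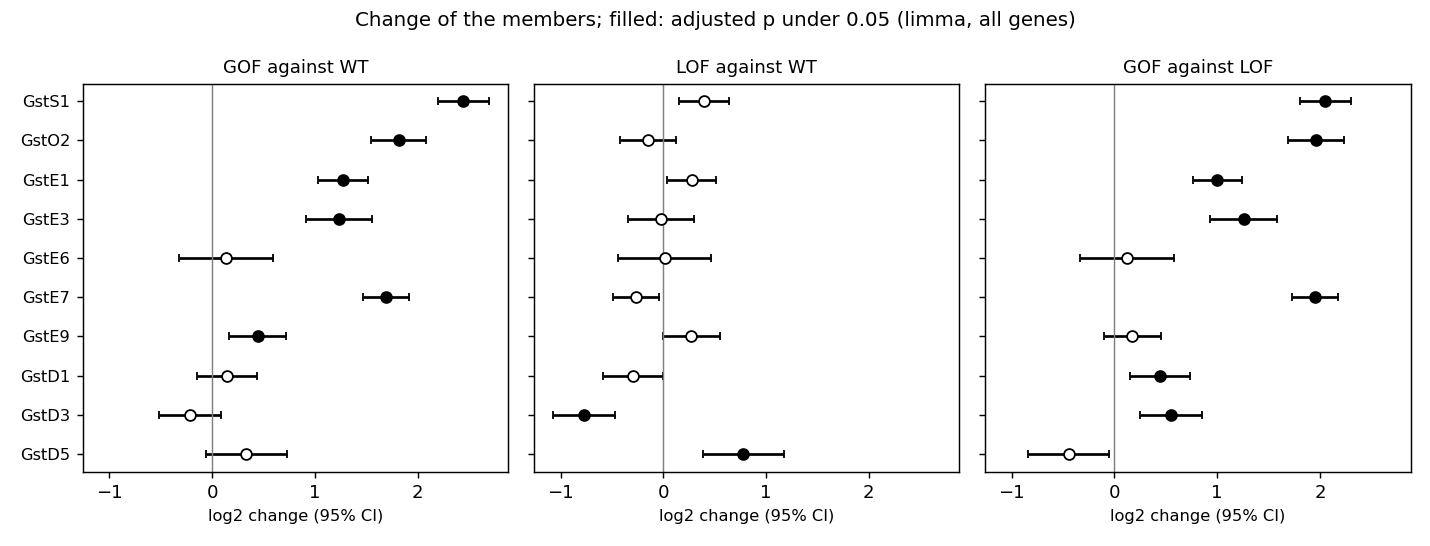
Log2 change of each member (points) with its 95% interval (x axis) in the 3 comparisons; filled points have an adjusted p under 0.05 in limma across 10845 genes. The sigma, omega and 4 epsilon genes lie right of 0 in GOF against WT, and GstD3 and GstD5 lie on opposite sides of 0 in LOF against WT.

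The rest of the GST family gave a wider view of the classes. A list of 38 GST genes included the 10 members, and 37 of them were measured. Of the 27 measured genes outside the members, 10 rose and 1 fell in GOF against WT (16.6% and 20.1% of all genes), and their median log2 change was 0.07, lower than that of the members (0.84), which had been picked with these results known. By class, 2 of 4 omega, 7 of 14 epsilon, 2 of 11 delta, 1 of 3 theta and 1 of 2 zeta genes rose, as did the single sigma and microsomal genes and gfzf. The difference between classes was not tested. In LOF 1 of the 37 rose and 2 fell, against 1.36% and 3.37% of all genes.

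Mgstl, a membrane-bound GST of the microsomal type, was among the GSTs with the largest changes. Its brightest probe set read 26647, 30967 and 23727 in GOF and 5897, 5171 and 5396 in LOF, against 6042, 6274 and 5034 in WT (log2 change against WT 2.23, adjusted p = 8.47e-08, 4.68-fold, 2.91-fold under base e). Its other 2 probe sets rose by 3.46 and 2.66 (limma over probe sets, adjusted p = 3.03e-08 and 1.08e-05). GstO1, next to GstO2 on the chromosome, read 236, 310 and 229 in GOF, against 81, 73 and 77 in WT (1.72, adjusted p = 5.9e-07). GstZ1, a zeta-class gene whose relatives act in tyrosine breakdown, averaged 2665 ± 396 in GOF and 881 ± 98.8 in WT (1.59, adjusted p = 7.74e-06). The GOF arrays of these genes were all above WT.

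Rises of about 1 on the log2 scale were also seen outside the members in the epsilon, delta and theta classes. GstE13 averaged 1005 ± 49 in GOF and 299 ± 12.3 in LOF, against 392 ± 25.1 in WT, and was the other GST to fall in LOF (log2 changes of 1.36 in GOF with adjusted p = 3.63e-07 and -0.39 in LOF with adjusted p = 0.0284). GstD9 (1.14, adjusted p = 2.16e-05) and GstD2 (0.97, adjusted p = 6.48e-06) were the delta genes that rose in GOF. GstE8 (0.92), GstE5 (0.75), the theta gene GstT3 (0.84) and gfzf (0.83), which encodes a zinc finger protein with a GST domain, rose as well (adjusted p from 5.58e-05 to 0.00143). GstT4 was the 1 gene to fall in GOF, at 2579 ± 346, against 4282 ± 1320 in WT (-0.69, adjusted p = 0.0247), and its WT replicate 2 (2753) lay within the GOF range of 2245 to 2936. No gene of the 37 fell when WT replicate 1, WT replicate 3, GOF replicate 1 or GOF replicate 2 was left out, and 2 fell without WT replicate 2 or GOF replicate 3. Among genes without a call were se, which makes an eye pigment precursor (-0.10), and GstE14, which acts in ecdysteroid synthesis (-0.02). Of the 37 genes, 22 lay outside the dimmest 40% of all genes by their mean over the 9 arrays, all 10 members among them, and 11 of the 16 risers. That mean takes in the GOF arrays, so a rise in GOF helps a gene to pass. GstE7 (430 in WT, 358 in LOF) and GstD2 (445 in WT, 416 in LOF) passed through their GOF levels (1398 and 872).

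**Figure D4:**
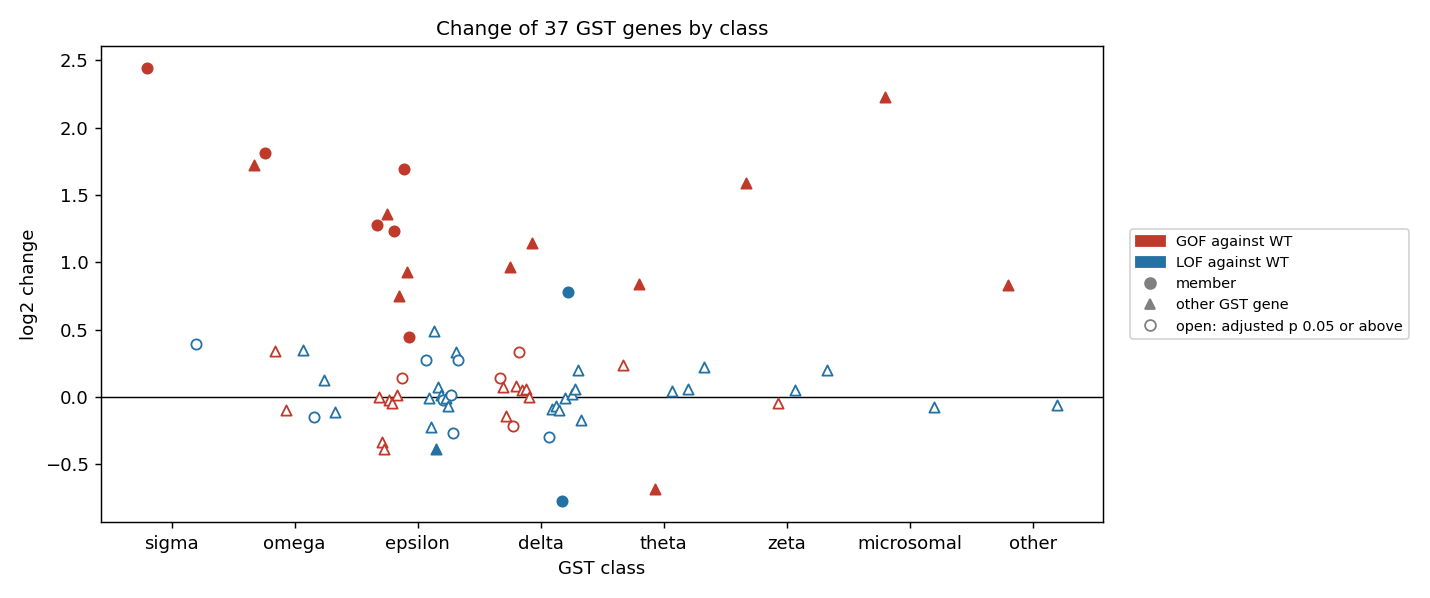
Log2 change (y axis) of 37 measured GST genes by class (x axis), in GOF against WT (left points of a class) and LOF against WT (right points); circles are the 10 members, triangles the other GST genes, and filled symbols have an adjusted p under 0.05. The largest rises in GOF are those of GstS1 (2.45) and Mgstl (2.23), and LOF changes stay between -0.77 and 0.78.

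Neighbouring GST genes on a chromosome often differed in their calls. In the RefSeq gene table (Release 6 plus ISO1 MT) the epsilon cluster runs as GstE10, GstE1, GstE2, GstE3, GstE4, GstE5, GstE6, GstE7, GstE8 and GstE9. Along it the GOF changes were -0.003, 1.27, -0.04, 1.23, 0.02, 0.75, 0.14, 1.69, 0.92 and 0.44, so that genes with and without a call alternated from GstE10 to GstE7. The log2 ratio of GstE7 to its neighbour GstE6, a pair chosen after the values were seen, was higher in GOF than in WT by 1.55 and higher on each GOF array than on any WT array. In the delta cluster, GstD9 and GstD2 rose on either side of GstD1 (0.14), and from GstD3 to GstD11 no gene was called in GOF against WT. The 4 omega genes lie together, and GstO2 and GstO1 at one end rose while se and GstO3 (0.34, adjusted p = 0.177) at the other were not called. Of the genes without a call, GstE10, GstE2, GstD4, GstD6, GstD7, GstD8, GstD10 and se lay in the dimmest 40% of genes. The risers GstE5, GstE8, GstD9 and GstO1 lay there too. GstE10 and GstE2 had WT means of 124 and 206. Whether such dim probe sets detect their genes was not tested. Which transcripts each probe set can bind among these related genes is stated in no source used here.

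**Figure D5:**
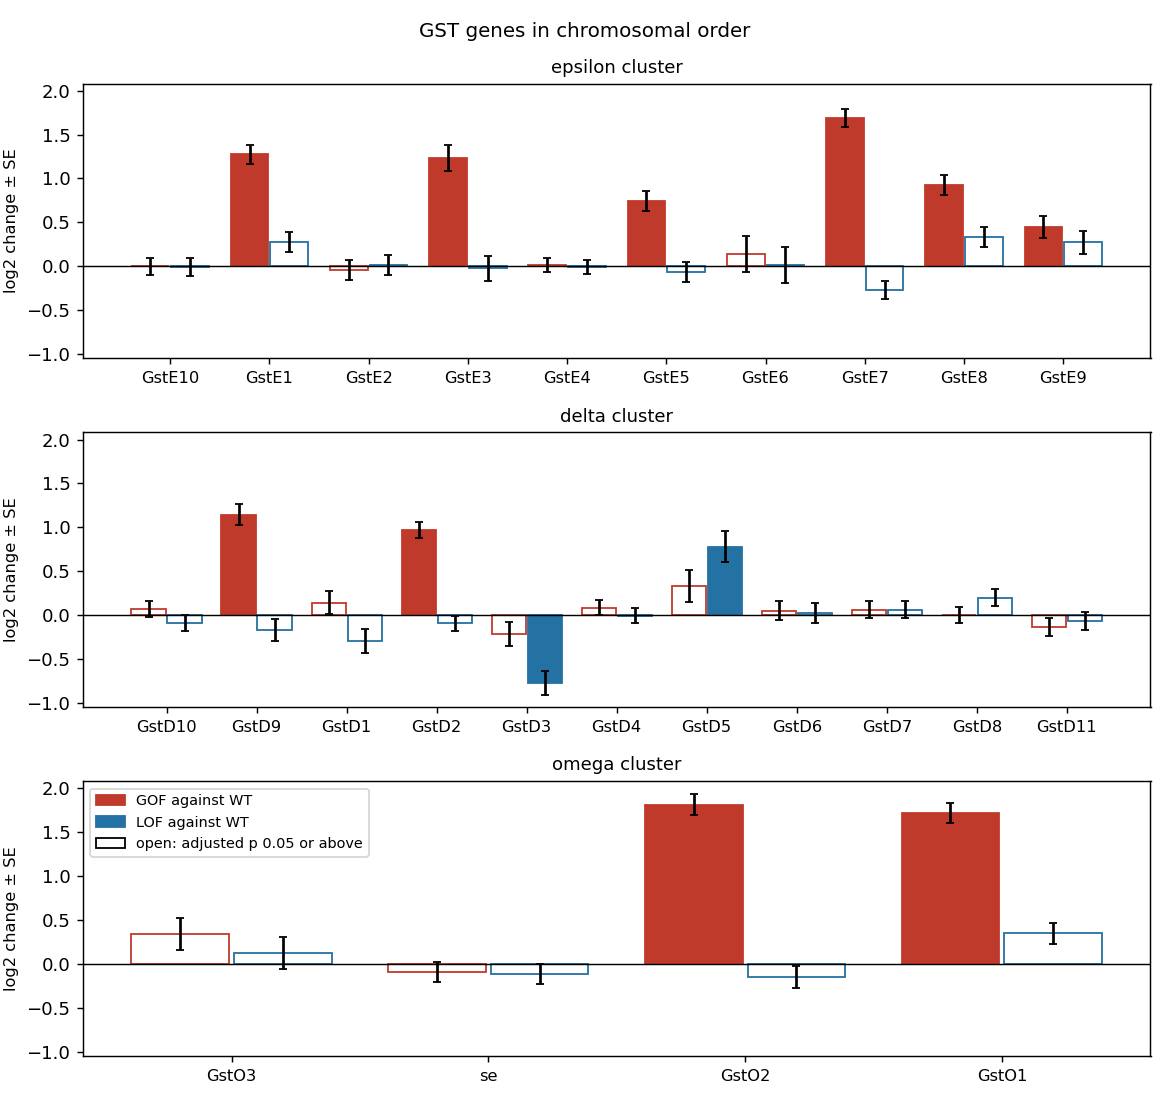
Log2 change ± SE (y axis) of GST genes in the order in which they lie on the chromosome (x axis), in GOF against WT (left bar) and LOF against WT (right bar), for the epsilon, delta and omega clusters; filled bars have an adjusted p under 0.05. Along the epsilon cluster GstE1, GstE3, GstE5 and GstE7 rise in GOF, each next to a gene without a call.

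A list of 14 measured genes held those that make or use glutathione, genes of the thioredoxin system, and regulators of such enzymes. Of these, 1 rose and 2 fell in GOF against WT, where 36.7% of all genes changed. In LOF 1 rose and 1 fell, where 4.73% of all genes changed. Glutamate-cysteine ligase, which starts glutathione synthesis, was not called. Gclc, its catalytic subunit, averaged 966 ± 18.2 in GOF and 1099 ± 69.4 in LOF, against 945 ± 92.8 in WT, and Gclm, its modifier subunit, averaged 5162 ± 76.6 in GOF and 6087 ± 375 in LOF, against 4950 ± 612 in WT. Against WT their adjusted p ran from 0.118 to 0.826. Gtpx, a peroxidase gene, rose in GOF (0.44, adjusted p = 0.00443), while the glutaredoxin gene Grx1 (-0.43, adjusted p = 0.0176) and MRP, an ABC exporter gene (-0.59, adjusted p = 0.00628), fell. In LOF the thioredoxin gene Trx2 fell (-0.597, adjusted p = 0.0082).

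cnc, whose product activates many GST genes, rose in LOF and not in GOF against WT. It read 960, 915 and 754 in GOF and 1158, 1425 and 1316 in LOF, against 766, 772 and 945 in WT. All LOF arrays lay above the others (LOF against WT 0.65, adjusted p = 0.0151, GOF against WT 0.08, adjusted p = 0.693). Keap1, the inhibitor of Cnc, was not called in either comparison (log2 changes of -0.04 in GOF and -0.27 in LOF, with adjusted p of 0.833 and 0.169), nor was maf-S, the gene of Cnc's dimer partner (-0.03 in GOF and -0.54 in LOF, with adjusted p of 0.936 and 0.0894).

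For each member that rose in GOF, the 2 genes with the most similar profile were found by the root mean square difference of log2 values over the 9 arrays, each gene centred on its WT mean. They were CG1943 (0.12) and plu (0.14) for GstS1, Dlc90F (0.07) and CG17129 (0.13) for GstO2, CG9953 (0.13) and CG8507 (0.14) for GstE7, fry and CG7133 (0.12 each) for GstE1, CG31109 (0.10) and CG12171 (0.10) for GstE3, and CG13713 (0.11) and AOX1 (0.12) for GstE9. plu is itself among the 13 egg and early embryo markers and rose by 2.50 in GOF. No GST was among the 3 nearest genes of another.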

How the data were processed

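Per the submitters' processing notes, the authors used RMA, which corrects background, equalises the arrays and summarises probes on a log scale; its version is not stated there. The deposited table holds 1 linear intensity per array for each probe set. Intensities spanned 29 to 1331513, with 239 probe sets above 65535, the 16-bit scanner limit, and natural logarithms of 3.37 to 14.1. Tests used log2(value + 1).

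Of 14010 probe sets, 12444 had 1 gene in the platform annotation and 327 several, which were left out. Symbols were updated by gene number, and 50 that had no match in RefSeq were kept. The brightest set stood for each of the 1209 genes with several, giving 10845 genes. A model with a mean for each group was fitted to the 9 arrays in limma 3.58.1 (R 4.3.3; 6 residual and 5.39 prior degrees of freedom), two-sided, with no filter on low values. The small number of arrays limits the precision: the median SE was 0.11. The fit was tested on simulated data. The members and lists were chosen with earlier results of these data known. Named are the 10 members, called genes of the family and pathway lists, 12 nearest genes and markers; se, GstE14, GstO3 and the markers quoted singly were chosen after their values were seen. Protein and promoter sequences were not used here.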

Additional observations from a re-analysis of the deposited data

How the results depend on the processing

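The 3 comparisons were repeated under 22 alternatives: other pseudocounts, logarithm bases, normalizations, variance models, filters, probe set rules and sample sets, 9 of which left out 1 array. Of 660 changes of single members, 629 kept their direction and their side of the threshold. In GOF against WT the count of called members was 6 throughout, and they were the same 6 risers except without GOF replicate 3. There GstE9 lost its call (adjusted p = 0.0517) and GstD3 was called as fallen (0.0449). In LOF against WT the 2 calls became 1 with the replicate block, 3 with quantile normalization or array weights, and 0 to 2 when single arrays were left out. In GOF against LOF the 7 calls became 6 to 9 when single arrays were left out, and 8 with array weights. Over the 37 GST genes, a count added after seeing the data, 15 to 17 rose in GOF against WT. Without the dimmest 40% of genes, by a mean that takes in the GOF arrays, 11 of the 22 left rose. Cyclic loess raised the share of rises among all calls in GOF to 54.2%, from 45.3%, and changed no member's call. Deviations of same-numbered arrays correlated at -0.089, -0.017 and 0.134 between GOF and WT, and at 0.067, 0.187 and 0.111 between LOF and WT. Between GOF and LOF they correlated at -0.18, 0.045 and -0.034. Arrays with different numbers ran from -0.277 to 0.232. Whether the replicate numbers pair the arrays was not tested. With the block the adjusted p of GstD5 in LOF was 0.0517, and no other member's call changed. GstS1 in LOF passed after quantile normalization (adjusted p = 0.0475) and with array weights (0.035).

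Signs turned only for changes without a call. GstE6 in GOF against WT was -0.0923 with array weights and -0.147 to 0.378 with single arrays left out, the lowest without GOF replicate 3. Against LOF it was -0.0671 with array weights and -0.159 to 0.366 with single arrays left out, the lowest again without GOF replicate 3. GstE6 in LOF against WT was -0.0253 with array weights and -0.0862 to 0.0963 with single arrays left out, below 0 without WT replicate 2 (-0.0862), LOF replicate 1 (-0.0178) or LOF replicate 3 (-0.0012). GstE3 in LOF against WT was 0.0067 after quantile normalization, and above 0 without WT replicate 1 (0.0385), WT replicate 3 (0.0183) or LOF replicate 2 (0.137), in a range of -0.146 to 0.137. The cause was not tested.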
